A study of Mus musculus with 6 samples.

Results

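The genes of the collagens other than type IV were examined in immortalized mouse podocytes, the epithelial cells that cover the glomerular capillaries. All protein-coding genes named as a collagen alpha chain were taken, apart from the 6 chains of type IV collagen, which gave 38 genes of the 57132 identifiers in the count table. RNA was sequenced from 3 samples of wildtype (WT) podocytes, line IMWT with genotype WT-Col4a3+/+, and from 3 samples of Alport Syndrome (AS) podocytes, line IMAS with genotype AS - Col4a3-/-. Both lines came from the kidney of adult male mice aged 8 weeks and carried the H-2Kb-tsA58 transgene, which encodes a temperature-sensitive large T antigen and allows growth in interferon gamma at 33 °C. They were grown with 20 U/mL interferon gamma and 10% serum, differentiated at 37 °C for 14 days according to the sample records, and given no treatment. The study's methods describe a shorter differentiation, a lower interferon dose for growth and none during differentiation. Each genotype was 1 cell line, so that genotype and line cannot be told apart, and whether a numbered set was a separate culture is not stated, so that the p-values may measure technical spread only.

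Collagens are trimers of alpha chains that wind into a triple helix. Fibrillar collagens (types I, II, III, V, XI, XXIV and XXVII) assemble into the banded fibrils of connective tissue, FACIT collagens (types IX, XII, XIV, XVI, XIX, XX and XXII) sit on the surface of such fibrils, network collagens (types VIII and X) form open lattices, and transmembrane collagens (types XIII, XVII, XXIII and XXV) are anchored in the cell membrane. Type VI forms beaded filaments, type VII forms anchoring fibrils, and types XV and XVIII, the multiplexins, are proteoglycans of basement membranes. In the healthy glomerulus the podocyte is best known for the type IV chains of the basement membrane, whereas fibrillar collagens are known from the interstitium and from scarred glomeruli.

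The total count per sample was between 45417221 and 54290968. CPM values below are counts relative to library totals, scaled by TMM to balance composition between libraries. The targeted gene Col4a3 averaged 1087 ± 170 CPM in WT against 68.8 ± 12.2 CPM in AS podocytes (SD, n = 3 each), which went with the labels. Markers of the podocyte were present in part. Synpo was between 497 and 847 CPM in each sample, whereas Tcf21 had 0 counts in every sample. WT replicate 1 stood apart from its group, with a chi-square of counts per degree of freedom of 47.7 and 49.97 against WT replicates 2 and 3, which were at 9.83 against each other. Mitochondrial genes held 0.882 to 1.68% of the counts in WT and 1.30 to 2.02% in AS samples. Their part in the collagen values was not tested.

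Among the 38 collagen genes, 29 had enough counts to be tested and 9 had too few. AS and WT podocytes were compared with edgeR's quasi-likelihood test over all 16263 genes that passed the filter, two-sided, at an adjusted p under 0.05. In AS podocytes 12 collagen genes were higher and 5 were lower, while 12 did not pass. Without WT replicate 1 these numbers were 12 higher and 6 lower. Over all genes tested the test called 20.4% as higher and 19.6% as lower in AS podocytes, or 40.1% in either direction. A gene that passed the filter only through the group where it was high had to differ, so that these counts describe the collagens and no more. The median log2 fold change was 0.39 over the 29 collagen genes and 0.0061 over all genes tested, and the median absolute log2 fold change was 0.84 and 0.28. With a fold change over 2 as well, 12 collagen genes passed, against 11.2% of all genes tested. The CPM of the groups did not overlap in 18 of the 29 collagen genes, against 52.3% of all genes tested. In bulk samples, fewer cells that express a gene and less RNA per cell cannot be told apart.

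**Figure D1:**
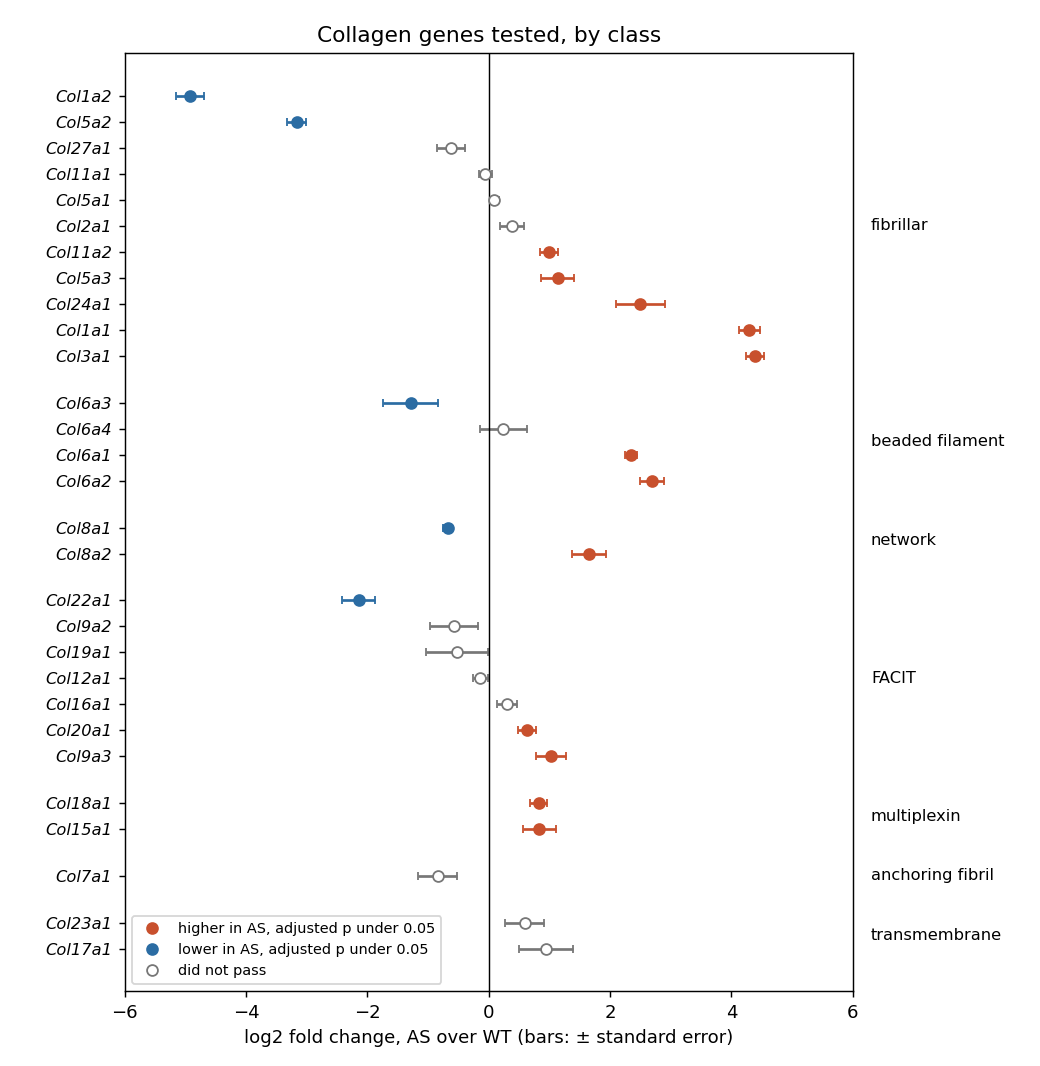
Log2 fold change of AS over WT podocytes (x axis) for the 29 collagen genes tested, grouped by class, with bars for ± standard error (3 samples per group). The fibrillar class holds both extremes, Col1a2 at -4.92 and Col3a1 at 4.39, and filled points passed an adjusted p under 0.05.

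The fibrillar class had 11 genes, all of which were tested. Of these, 5 were higher in AS podocytes (Col1a1, Col3a1, Col5a3, Col11a2 and Col24a1), 2 were lower (Col1a2 and Col5a2) and 4 did not pass. The share called was 63.6%, against 40.1% of all genes tested. The largest differences lay in the chains of types I, III and V, and in both type I and type V the chains of 1 collagen did not move together.

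Type I collagen, the main collagen of bone, skin and scar, is usually made of 2 chains encoded by Col1a1 and 1 chain encoded by Col1a2. Col1a1 was at 19.5, 26.9 and 26.6 CPM in the WT samples and at 430.1, 410 and 591 CPM in the AS samples. Every AS sample lay above every WT sample, and the means differed by 4.29 ± 0.18 (SE) on the log2 scale (edgeR adjusted p = 1.87e-07), or 19.6-fold. Col1a2 went the other way. It was at 37.7, 23.5 and 30.7 CPM in the WT samples and at 0.932, 0.739 and 1.33 CPM in the AS samples. The log2 fold change of Col1a2 was -4.92 ± 0.24 (SE, edgeR adjusted p = 5.14e-07), a level 30.4-fold lower, so that the gene that encodes the partner chain was near 1 CPM where Col1a1 was high. Type III collagen is a homotrimer of the Col3a1 chain and shares fibrils with type I. Col3a1 was at 9.43, 11.0 and 7.87 CPM in the WT samples and at 184, 174 and 235 CPM in the AS samples. Its log2 fold change of 4.39 ± 0.15 (SE, edgeR adjusted p = 6.15e-08) was 20.9-fold, the groups did not overlap, and in each sample the level per length stood at 0.316 to 0.514 times that of Col1a1.

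The promoter windows of Col1a2 and Col3a1 are shown because these genes had the largest fall and the largest rise of the collagens. RefSeq windows (GRCm38.p6, not the build of the counts) matched 30 of the 38 genes, and those of Col1a1, Col2a1, Col5a2, Col9a3, Col12a1, Col14a1, Col22a1 and Col26a1 were not among them. Each sequence gives the 250 bases before the annotated start, 5′ to 3′, at chr6:4505368-4505617 on the plus strand for Col1a2 and at chr1:45311288-45311537 on the plus strand for Col3a1. Capitals mark the TATA box letters TATAAA, the CAAT box letters CCAAT and the GC box letters GGGCGG. Each was searched on both strands, and matches that overlap were all kept.
Col1a2: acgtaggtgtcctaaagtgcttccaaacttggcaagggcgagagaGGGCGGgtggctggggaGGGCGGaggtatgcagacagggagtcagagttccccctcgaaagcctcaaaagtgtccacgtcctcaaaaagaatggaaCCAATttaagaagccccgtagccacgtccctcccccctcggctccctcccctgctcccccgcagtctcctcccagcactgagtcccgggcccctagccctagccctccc
Col3a1: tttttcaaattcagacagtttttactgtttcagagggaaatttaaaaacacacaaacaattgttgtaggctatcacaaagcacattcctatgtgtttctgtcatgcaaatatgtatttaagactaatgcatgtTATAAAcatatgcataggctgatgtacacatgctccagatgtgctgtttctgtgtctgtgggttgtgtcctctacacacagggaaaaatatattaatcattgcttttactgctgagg
The Col1a2 window held 1 CAAT box and 2 GC boxes, and the Col3a1 window held 1 TATA box and no GC box. Over all 32851 windows of the same length, 12.4% held TATAAA, 33.8% held CCAAT and 32.7% held GGGCGG. Of the 33 windows of collagen genes, 5 held the TATA box, 10 the CAAT box and 19 (57.6%) the GC box. G and C made up 62% of the Col1a2 window and 35.2% of the Col3a1 window, against a median of 52.4% over all windows. A match describes the letters only.

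Type V collagen starts and limits the growth of type I fibrils, and its common form joins chains from Col5a1 and Col5a2. Col5a2 was at 1599, 2374 and 2491 CPM in the WT samples, where it was the second of all 38 genes by level per length. It was at 248, 253 and 219 CPM in the AS samples, a difference of -3.17 ± 0.16 (SE) on the log2 scale (edgeR adjusted p = 7.31e-07) or 8.99-fold lower, with no overlap between groups. Col5a1 was at 1502, 1365 and 1399 CPM in the WT and at 1546, 1398 and 1601 CPM in the AS samples. These groups overlapped, and the log2 fold change of 0.09 ± 0.08 (SE, edgeR adjusted p = 0.370) was within the spread between samples. The remaining type V chain, Col5a3, was low in both lines, at 2.41, 3.25 and 5.18 CPM in WT and 6.33, 7.33 and 10.03 CPM in AS samples, and it rose by 1.13 ± 0.27 (SE) on the log2 scale (edgeR adjusted p = 0.00897).

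Types II and XI are the fibrillar collagens of cartilage. Col2a1 was high for a gene of cartilage, at 483, 334 and 250 CPM in the WT and 462, 412 and 522 CPM in the AS samples. The groups overlapped, and the log2 fold change of 0.39 did not pass (adjusted p = 0.152, edgeR). Without WT replicate 1, its highest WT sample, the Col2a1 value was 0.67 and passed (adjusted p = 0.00121, edgeR). Col2a1 passed in no other fit with 1 sample left out (adjusted p 0.151 to 0.400, edgeR). With the median of each chromosome subtracted, the Col2a1 value was 0.18. Col11a1 averaged 90.7 ± 11.8 CPM in WT against 87.2 ± 9.22 CPM in AS podocytes (SD, n = 3 each), a difference within the spread (log2 fold change -0.06, SE 0.10). Its partner Col11a2 rose from 3.11 ± 0.192 to 6.20 ± 0.820 CPM (SD, n = 3 each), or by 1.00 on the log2 scale (adjusted p = 0.000727, edgeR). Col24a1, a fibrillar chain described in developing bone, was at 0.158, 0.555 and 0.715 CPM in the WT and 2.46, 2.47 and 3.07 CPM in the AS samples, and rose by 2.50 ± 0.40 on the log2 scale (SE, edgeR adjusted p = 0.00108). Col27a1, a chain of cartilage, was at 9.86, 16.3 and 20.9 CPM in WT and 8.28, 11.0 and 11.2 CPM in AS samples. Its log2 fold change of -0.62 did not pass with edgeR (adjusted p = 0.0638) or with limma-voom (-0.54, adjusted p = 0.1225). It passed with DESeq2 (-0.63, adjusted p = 0.0135). Without WT replicate 1, its lowest WT sample, the Col27a1 value was -0.87 and passed (adjusted p = 0.000789, edgeR). Col27a1 passed in no other fit with 1 sample left out (adjusted p 0.098 to 0.2365, edgeR).

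**Figure D2:**
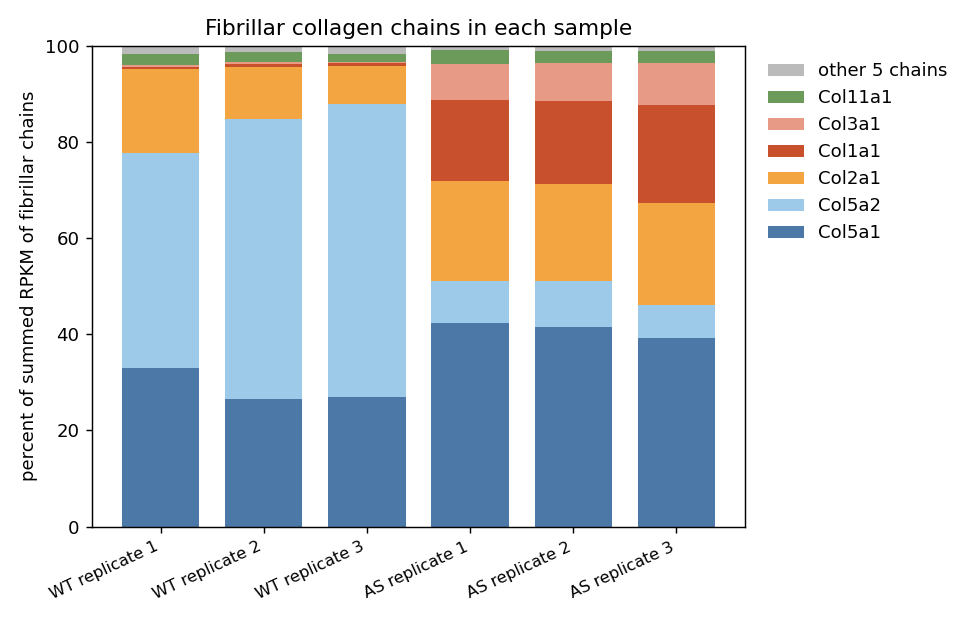
Share of each fibrillar chain in the summed RPKM of the 11 fibrillar genes (y axis, percent) in each of the 6 samples. In WT samples Col5a2 held 44.6 to 60.9% and Col1a1 under 1%, and in AS samples Col5a2 held 6.82 to 9.55% and Col1a1 16.7 to 20.5%.

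Levels of different genes were compared per length, as RPKM (CPM per kilobase of the transcript with the longest coding sequence in GENCODE M21). By RPKM the fibrillar class of WT podocytes was mostly type V. Col5a2 held 54.6 ± 8.78% and Col5a1 28.8 ± 3.65% of the summed fibrillar RPKM (SD, n = 3 each), while Col1a1, Col1a2 and Col3a1 each held under 1% on average. In AS podocytes the share of Col5a2 was 8.33 ± 1.39%, that of Col1a1 was 18.2 ± 2.06% and that of Col3a1 was 8.06 ± 0.586% (SD, n = 3 each). Col2a1 held 12.02 ± 4.92% of the WT sum against 20.7 ± 0.489% of the AS sum (SD, n = 3 each). No group overlapped in the shares of Col5a2, Col1a1 and Col3a1. Since shares sum to 100%, the fall of 1 chain raises the shares of the others, and Col5a1 rose in share with a CPM that did not differ beyond its spread.

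Over all 38 genes, the highest levels per length in WT podocytes were those of Col8a1 (403 ± 28.3 RPKM), Col5a2 (325 ± 73.2), Col5a1 (169 ± 8.48), Col18a1 (120 ± 26.3) and Col12a1 (93.3 ± 4.73; RPKM, SD, n = 3 each). Col18a1 and Col12a1 overlapped between samples of this group. In AS podocytes the order was Col8a1 (251 ± 14.0 RPKM), Col18a1 (213 ± 13.2), Col5a1 (180 ± 12.5), Col2a1 (91.2 ± 10.9), Col12a1 (84.7 ± 16.1), Col1a1 (80.4 ± 16.7) and Col6a1 (73.8 ± 5.70; RPKM, SD, n = 3 each). The levels of Col2a1, Col12a1, Col1a1 and Col6a1 lay within 1 SD of a neighbour in this order. With the length of all exons joined, a choice made after seeing the data, Col5a1 (178 RPKM), Col18a1 (170.03 RPKM) and Col8a1 (164 RPKM) stood in that order in AS podocytes. Summed over the 38 genes, the CPM were 7961, 8142 and 8160 in the WT and 7109, 6253 and 7388 in the AS samples, so that the total was lower in every AS sample while most called genes were higher. The 6 type IV genes summed to 10368, 8564 and 8141 CPM in the WT and 9103, 7950 and 8167 CPM in the AS samples, which overlapped.

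**Figure D3:**
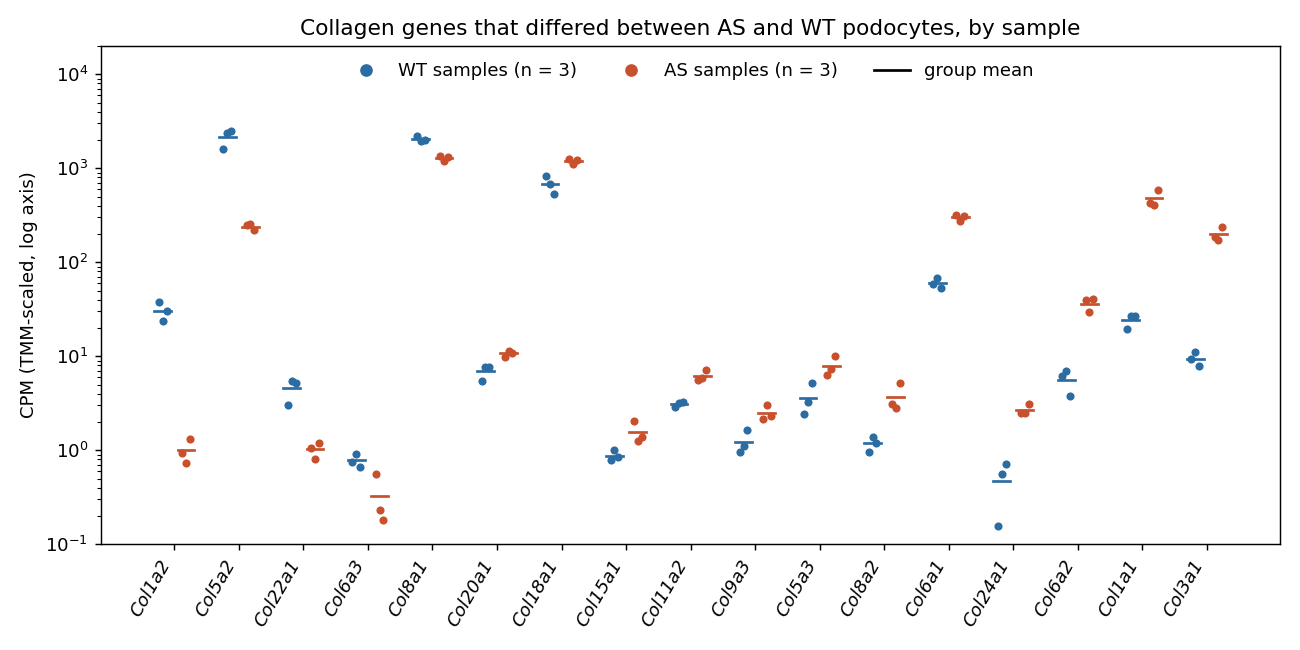
CPM on a log axis for the 17 collagen genes that differed, with 1 point per sample, lines at the group means, and genes ordered by log2 fold change. The 17 genes were chosen by the test on these same samples, so that their lack of overlap between WT and AS points goes with that choice. Of all genes tested, 52.3% had no overlap. The genes run from under 1 CPM (Col6a3, Col24a1) to above 2000 CPM (Col5a2, Col8a1).

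Type VI collagen forms beaded filaments around cells from chains of Col6a1, Col6a2 and 1 more chain, usually that of Col6a3. Col6a1 was at 58.7, 68.0 and 52.9 CPM in the WT samples and at 320, 276 and 311 CPM in the AS samples. It rose by 2.34 ± 0.10 (SE) on the log2 scale (edgeR adjusted p = 2.41e-07), or 5.05-fold. Col6a2 moved with it, from 6.23, 6.90 and 3.81 CPM in the WT to 39.3, 29.5 and 40.4 CPM in the AS samples, a difference of 2.69 ± 0.20 (SE) on the log2 scale (edgeR adjusted p = 9.74e-06). Neither gene had groups that overlapped. Col6a3 was below 1 CPM in every sample, at 0.750, 0.919 and 0.672 CPM in the WT and 0.555, 0.233 and 0.182 CPM in the AS samples. Its log2 fold change of -1.29 ± 0.45 passed narrowly (SE, edgeR adjusted p = 0.0452). When samples were left out 1 at a time, Col6a3 passed without AS replicate 1 and in none of the other 5 fits (edgeR adjusted p up to 0.142). The alternatives to Col6a3 were also scarce. Col6a4 averaged 0.351 ± 0.110 CPM in WT against 0.412 ± 0.0705 CPM in AS podocytes (SD, n = 3 each; edgeR adjusted p = 0.666), while the summed counts of WT and AS samples were 2 and 7 for Col6a5 and 3 and 0 for Col6a6. A count of 0 over the AS samples allows up to 0.0198 CPM (3 counts over the group, counting error only).

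Col6a1 and Col6a2 lie next to each other on chromosome 10, on the same strand, and Col18a1 lies 2 protein-coding genes further on. The promoter windows of the neighbouring pair are shown because both genes rose together (RefSeq, GRCm38.p6, minus strand, 250 bases before the start, marked as above). That of Col6a1 is at chr10:76726045-76726294, and that of Col6a2, which has 2 annotated starts, is the window at chr10:76623405-76623654.
Col6a1: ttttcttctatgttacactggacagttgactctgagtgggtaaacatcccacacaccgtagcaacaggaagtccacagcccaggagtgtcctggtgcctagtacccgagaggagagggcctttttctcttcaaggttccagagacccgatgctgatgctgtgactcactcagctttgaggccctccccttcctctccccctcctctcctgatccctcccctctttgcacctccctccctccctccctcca
Col6a2: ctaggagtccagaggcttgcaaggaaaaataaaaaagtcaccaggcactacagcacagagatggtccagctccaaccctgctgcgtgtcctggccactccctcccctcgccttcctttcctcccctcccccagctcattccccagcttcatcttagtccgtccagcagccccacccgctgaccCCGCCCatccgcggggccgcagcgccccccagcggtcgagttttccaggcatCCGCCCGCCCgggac
The Col6a1 window held none of these motifs, and the Col6a2 window held 3 GC boxes. Of the 8 other protein-coding genes within 5 places of Col6a2, 6 were tested and 4 passed, all higher in AS podocytes, counting Col18a1 apart as a collagen. Among these neighbours of Col6a2 the log2 fold change reached 0.58 (Lss), well under that of Col6a1 or Col6a2. The genes of chromosome 10 as a whole were shifted, with a median log2 fold change of 0.32 over 530 genes with a mean log2 CPM over 2. With the median of each chromosome subtracted, the log2 fold change was 2.01 for Col6a1, 2.36 for Col6a2 and 0.50 for Col18a1.

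Col3a1 and Col5a2 are also neighbours, on chromosome 1, with no protein-coding gene between them and on opposite strands, so that their ends face each other. Col3a1 was 20.9-fold higher and Col5a2 8.99-fold lower in AS podocytes. Of the 9 other protein-coding genes within 5 places of Col3a1, 7 were tested and 3 were higher, with log2 fold changes from -0.19 (Slc40a1) to 0.53 (Gulp1). The rise of Col3a1 and the fall of Col5a2 were thus each many times larger than any difference among their tested neighbours. The median log2 fold change over the 620 genes of chromosome 1 was -0.01.

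**Figure D4:**
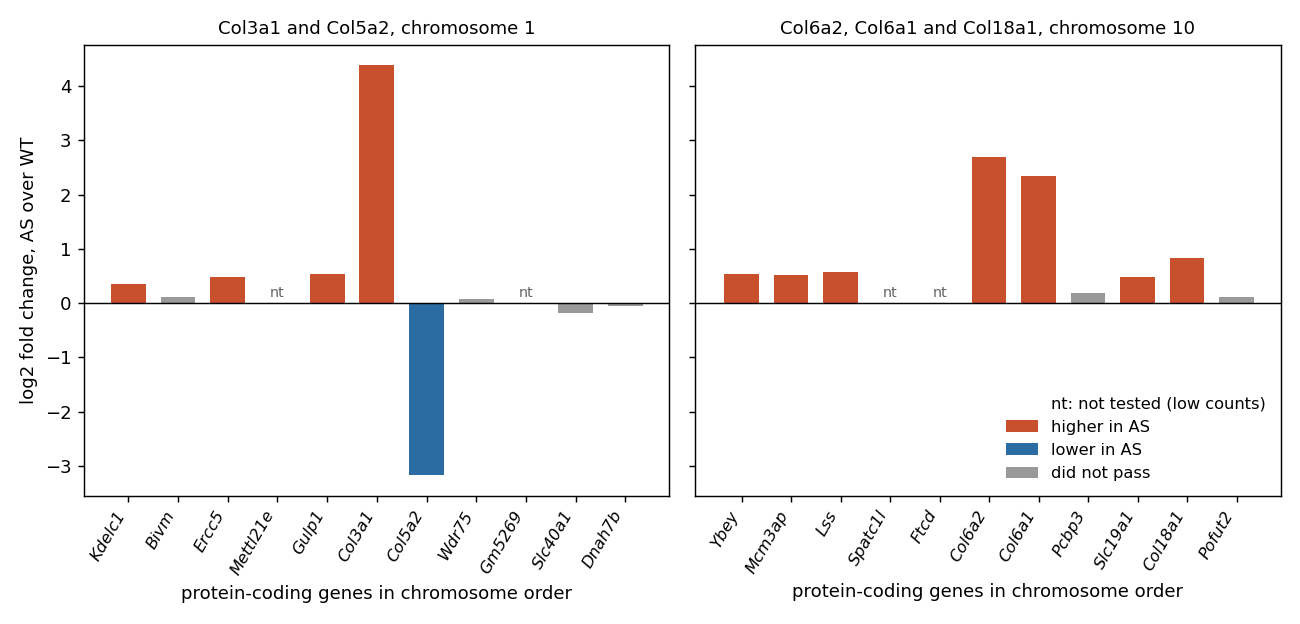
Log2 fold change of AS over WT podocytes (y axis) for protein-coding genes in chromosome order (x axis) around Col3a1 and Col5a2 on chromosome 1 and around Col6a2 and Col6a1 on chromosome 10. Col3a1 (4.39) and Col5a2 (-3.17) stand side by side in opposite directions, whereas Col6a2 (2.69) and Col6a1 (2.34) rose together, and genes marked nt had too few counts.

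Type VIII collagen forms lattices in Descemet's membrane and around vessels, from chains of Col8a1 and Col8a2. Col8a1 was the highest of the 38 genes per length of transcript in both lines, and in WT podocytes alone per length of joined exons. It was at 2221, 1949 and 2000.0 CPM in the WT and at 1338, 1203 and 1310 CPM in the AS samples, a difference of -0.68 ± 0.08 (SE) on the log2 scale (edgeR adjusted p = 0.000134), with no overlap. Col8a2 was low and went the other way, at 0.966, 1.39 and 1.19 CPM in the WT and 3.11, 2.80 and 5.21 CPM in the AS samples, a difference of 1.65 ± 0.28 (SE) on the log2 scale (edgeR adjusted p = 0.00133). Col10a1 of growth-plate cartilage, also a network gene, was not tested, with 23 counts in WT and 12 in AS samples. Windows of the 2 type VIII genes are shown since their directions were opposite (RefSeq, GRCm38.p6, marked as above). That of Col8a1 is at chr16:57754738-57754987 on the minus strand and that of Col8a2 at chr4:126286544-126286793 on the plus strand.
Col8a1: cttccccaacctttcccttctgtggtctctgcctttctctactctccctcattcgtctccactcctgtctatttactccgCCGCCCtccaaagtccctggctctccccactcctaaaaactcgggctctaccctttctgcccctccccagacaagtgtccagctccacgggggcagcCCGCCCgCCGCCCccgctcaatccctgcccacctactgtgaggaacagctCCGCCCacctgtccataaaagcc
Col8a2: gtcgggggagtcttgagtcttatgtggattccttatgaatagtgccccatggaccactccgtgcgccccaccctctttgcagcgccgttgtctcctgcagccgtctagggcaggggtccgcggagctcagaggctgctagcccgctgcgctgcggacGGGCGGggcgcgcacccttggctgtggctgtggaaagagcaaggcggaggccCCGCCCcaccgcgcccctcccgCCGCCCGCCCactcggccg
Both windows held 4 GC boxes, some of them overlapping in Col8a2, and no CCAAT or TATAAA.

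The multiplexins both rose. Col18a1, which encodes a basement membrane proteoglycan of the glomerulus and is the source of endostatin, was at 821, 675 and 526 CPM in the WT and at 1255, 1111 and 1215 CPM in the AS samples. This was 1.77-fold higher without overlap (log2 fold change 0.82 ± 0.14, SE, edgeR adjusted p = 0.00129). Col15a1, its relative in the basement membranes of muscle and vessels, was near 1 CPM, at 0.789, 1.00 and 0.845 CPM in the WT and 2.04, 1.26 and 1.40 CPM in the AS samples. Col15a1 passed at a log2 fold change of 0.83 (edgeR adjusted p = 0.0353). With samples left out 1 at a time it passed without AS replicate 2 and in none of the other 5 fits (edgeR adjusted p up to 0.138).

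Of the 9 FACIT genes, 7 were tested, 2 were higher (Col9a3 and Col20a1) and 1 was lower (Col22a1) in AS podocytes. The share called, 42.9% of those tested, was near the 40.1% of all genes tested. The abundant FACIT was Col12a1, a chain that tunes fibril spacing in tendon and ligament, at 1021, 1069 and 1130 CPM in the WT and 1063, 762 and 1101 CPM in the AS samples. These groups overlapped, AS replicate 2 was the lowest, and the log2 fold change of -0.14 did not pass (adjusted p = 0.416, edgeR). Col16a1, a FACIT found with fibrillin as well as with fibrils, averaged 63.1 ± 17.7 CPM in WT against 77.6 ± 5.28 CPM in AS podocytes (SD, n = 3 each), and its log2 fold change of 0.30 did not pass (adjusted p = 0.184, edgeR). Without WT replicate 3, its highest WT sample, the Col16a1 value was 0.52 and passed (adjusted p = 0.0121, edgeR). Col16a1 passed in no other fit with 1 sample left out (adjusted p 0.211 to 0.404, edgeR). Col22a1, a collagen of the muscle-tendon junction, was at 3.00, 5.49 and 5.20 CPM in the WT and 1.07, 0.817 and 1.20 CPM in the AS samples. It was 4.42-fold lower, a difference of -2.15 ± 0.27 (SE) on the log2 scale (edgeR adjusted p = 0.000255), without overlap and against a median of 0.20 for the 431 genes of its chromosome 15. Col20a1 rose from 6.96 ± 1.25 to 10.8 ± 0.841 CPM (SD, n = 3 each; log2 fold change 0.63, adjusted p = 0.00741, edgeR), a value that is uncertain because BX649560.1, with summed counts of 1841 in WT and 1941 in AS samples, overlaps its exons on the same strand.

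Type IX collagen coats type II fibrils in cartilage and needs chains of Col9a1, Col9a2 and Col9a3. Col9a1 had 1 count in a WT sample and none in the AS samples. Col9a3 was at 0.966, 1.11 and 1.63 CPM in the WT and 2.18, 3.03 and 2.31 CPM in the AS samples, a log2 fold change of 1.02 (adjusted p = 0.0104, edgeR) without overlap. Col9a2 was at 1.64, 1.73 and 1.60 CPM in the WT and 0.888, 0.545 and 1.89 CPM in the AS samples, which overlapped through AS replicate 3. Its log2 fold change of -0.57 did not pass (adjusted p = 0.282, edgeR) and became -1.21 without that sample (adjusted p = 0.0192, edgeR). Col9a2 passed in no other fit with 1 sample left out (adjusted p 0.318 to 0.609, edgeR). Col19a1 was below 1 CPM in every sample and did not pass (log2 fold change -0.53, adjusted p = 0.456, edgeR), and Col14a1 had 14 and 28 counts over the WT and AS samples and was not tested.

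Type VII collagen anchors epithelial basement membranes to the tissue beneath. Col7a1 was at 11.4, 30.3 and 32.5 CPM in the WT and 11.6, 14.4 and 15.3 CPM in the AS samples. WT replicate 1 lay with the AS samples, and the log2 fold change of -0.84 ± 0.32 did not pass (SE, edgeR adjusted p = 0.0601). Without WT replicate 1 the Col7a1 value was -1.19 and passed (adjusted p = 1.01e-05, edgeR). Col7a1 passed in no other fit with 1 sample left out (adjusted p 0.112 to 0.199, edgeR). Of the 4 transmembrane collagens, 2 were tested and neither passed. Col17a1, a collagen of hemidesmosomes, was below 0.5 CPM in every sample (log2 fold change 0.94, adjusted p = 0.123, edgeR), and Col23a1 averaged 0.834 ± 0.260 CPM in WT against 1.26 ± 0.338 CPM in AS podocytes (SD, n = 3 each; log2 fold change 0.59, adjusted p = 0.183, edgeR). Summed over WT and AS samples, Col13a1 had 3 and 1 counts, and Col25a1 had 6 and 0. The remaining chains, Col26a1 with 6 and 4 counts and Col28a1 with 26 and 25 counts over the WT and AS samples, were not tested either. At this depth Col13a1, Col25a1 and Col26a1 were at the limit of detection, and a difference in them was not detectable. Col28a1 was detected but low, at 0.185 ± 0.196 CPM in WT against 0.167 ± 0.0637 CPM in AS podocytes (SD, n = 3 each).

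The ratio of partner chains within a sample does not depend on how the libraries are scaled. It was taken from RPKM for the 8 of 9 chain pairs with both genes tested, among them Col3a1 to Col1a1, whose chains belong to different collagens. Of these 8 pairs, 7 had no overlap between WT and AS samples. Single genes did not overlap in 52.3% of those tested, and the share among ratios of other gene pairs was not computed, so that this count is a description only. An exact permutation test of 3 against 3 samples, two-sided, cannot go below p = 0.10. Each of these 7 pairs gave that p, which adjusts to 0.11 over the 8 pairs, so that no pair could pass a threshold of 0.05. Col1a1 stood at 0.468, 1.03 and 0.781 times the level of Col1a2 in the WT samples and at 416, 499.7 and 402 times in the AS samples. The difference in this ratio was 9.24 on the log2 scale, the largest of the 8 pairs. The ratio of Col5a1 to Col5a2 was 0.740, 0.453 and 0.442 in the WT and 4.92, 4.36 and 5.76 in the AS samples, a difference of 3.23. By these lengths Col5a2 was the more abundant of the pair in WT podocytes, and Col5a1 in AS podocytes. The level of a ratio depends on the lengths used, while its log2 difference between groups does not. With all exons joined, the WT means were 3.71 RPKM for Col1a1 against 2.46 for Col1a2, the reverse of their order by transcript. Those of Col5a2 and Col5a1 were 225 and 167 RPKM in WT podocytes.

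For the other 6 pairs the geometric mean of the ratio is given for each group. Col6a1 exceeded Col6a2 by 10.5-fold in WT and 8.06-fold in AS podocytes, a small change in the ratio (log2 difference -0.38) beside the rise of both genes. The ratio of Col6a3 to Col6a1 was 0.00527 in WT and 0.000385 in AS podocytes, so that Col6a3 was scarcer still relative to Col6a1 in the latter. Col8a1 exceeded Col8a2 by 1489-fold in WT and 305-fold in AS podocytes, and Col11a1 exceeded Col11a2 by 20.4-fold and 9.91-fold. The ratio of Col9a3 to Col9a2 was 0.698 in WT and 2.45 in AS podocytes, and it varied most within a group, at 2.35, 5.35 and 1.17 in the AS samples. Its log2 difference was 1.81, with 1.25 without AS replicate 2 and 2.35 without AS replicate 3. The ratio of Col3a1 to Col1a1 was 0.414 in WT and 0.444 in AS podocytes, the 1 pair that overlapped (exact permutation p = 0.80, two-sided), with both genes about 20 times higher in AS podocytes. Its log2 ratio differed by 0.10, and by -0.09 to 0.26 when any 1 sample was left out.

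**Figure D5:**
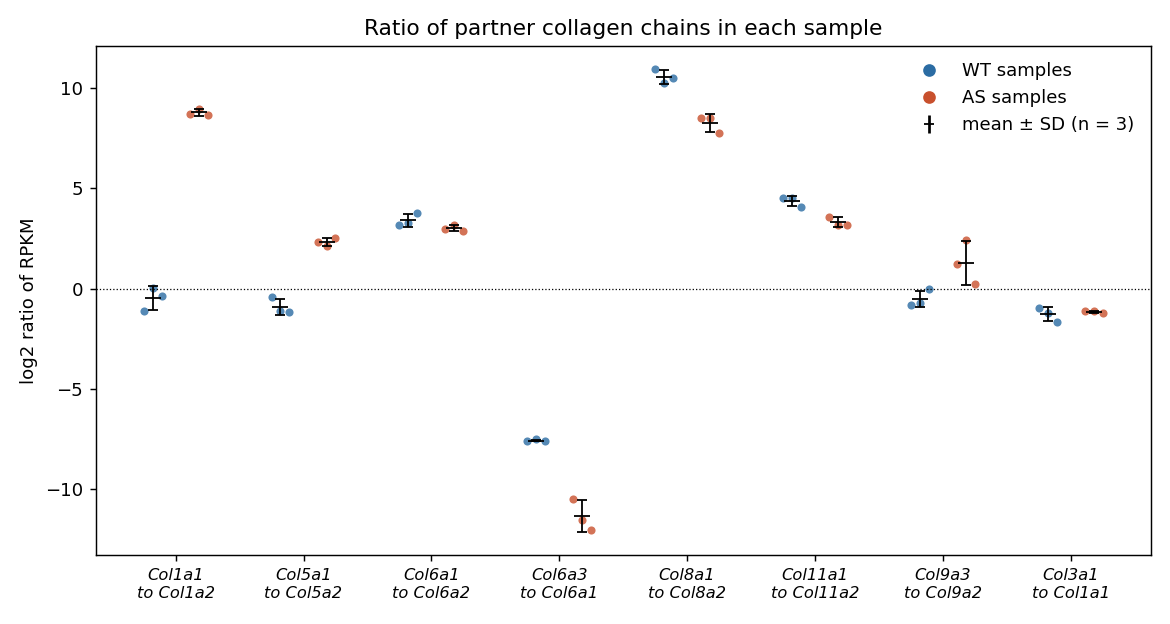
Log2 ratio of the RPKM of paired chains (y axis) for 8 pairs (x axis), with 1 point per sample and black bars for mean ± SD (n = 3). The chains of each pair belong to the same collagen, except those of Col3a1 to Col1a1. Col1a1 to Col1a2 moves from near 0 in WT to 8.77 in AS samples, Col5a1 to Col5a2 crosses 0, and Col3a1 to Col1a1 overlaps between the groups.

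Genes that make, process, cross-link and bind collagen were counted as well. Of 26 genes of biosynthesis and processing, 24 were tested, 9 were higher and 3 lower in AS podocytes, with a median log2 fold change of 0.04. These 12 of 24 compare with 40.1% of all genes tested (20.4% higher and 19.6% lower), the same background for the lists that follow, and the genes named from each list are those with the smallest adjusted p or the highest level. Adamts2, which removes the N-propeptide of fibrillar procollagens, rose from 0.166 ± 0.118 to 11.5 ± 0.575 CPM (SD, n = 3 each), or by 6.09 ± 0.31 (SE) on the log2 scale (edgeR adjusted p = 7.31e-07). Pcolce, an enhancer of C-propeptide removal, rose from 189 ± 5.34 to 354 ± 13.8 CPM, and Serpinh1, the collagen chaperone HSP47, from 1072 ± 48.0 to 1531 ± 21.03 CPM (SD, n = 3 each; adjusted p = 3.13e-06 and 0.000225, edgeR). Plod2, a lysyl hydroxylase of the telopeptides, fell from 755 ± 56.6 to 521 ± 5.53 CPM (SD, n = 3 each; adjusted p = 0.000266, edgeR), whereas P4hb, the beta subunit of prolyl 4-hydroxylase, was at 938 ± 60.6 and 953 ± 28.6 CPM (SD, n = 3 each; adjusted p = 0.819, edgeR).

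All 6 cross-linking genes were tested, and 2 were higher and 3 lower. Loxl2, a lysyl oxidase known to act on basement membrane collagen, rose from 18.6 ± 3.15 to 531 ± 6.83 CPM (SD, n = 3 each), or by 4.83 ± 0.12 (SE) on the log2 scale (edgeR adjusted p = 9.49e-09). Lox, the lysyl oxidase of fibrillar collagen, fell from 1240 ± 238 to 753 ± 43.0 CPM, Loxl3 fell from 72.0 ± 11.0 to 50.3 ± 3.68 CPM, and the transglutaminase Tgm2 fell from 648 ± 128 to 182 ± 4.41 CPM (SD, n = 3 each; adjusted p up to 0.00424, edgeR). Of 10 collagen receptors, 8 were tested, 1 was higher and 3 were lower. Mrc2, an endocytic collagen receptor, rose from 15.3 ± 2.40 to 52.2 ± 2.98 CPM, while Ddr1 (779 ± 66.1 to 504 ± 33.1 CPM), Itga1 (409 ± 66.6 to 255 ± 21.9 CPM) and Itga11 (19.4 ± 1.69 to 9.32 ± 2.34 CPM) fell (SD, n = 3 each; adjusted p up to 0.00114, edgeR). Itgb1, the partner of the collagen-binding integrin alpha chains, was at 3567 ± 420 and 3839 ± 124 CPM (SD, n = 3 each; adjusted p = 0.406, edgeR), with a log2 fold change of 0.11 that turned to -0.22 once chromosome medians were removed.

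Of 12 matrix genes associated with fibrils, 11 were tested, 4 were higher and 3 lower. Bgn, a small proteoglycan that binds type I collagen, fell from 988 ± 58.9 to 6.59 ± 1.33 CPM (SD, n = 3 each), a change of -7.23 ± 0.15 (SE) on the log2 scale (edgeR adjusted p = 4.74e-09). Thbs1, a secreted matricellular glycoprotein, fell from 18280 ± 2348 to 10491 ± 634 CPM, whereas its relative Thbs2 rose from 1.45 ± 0.387 to 10.2 ± 1.57 CPM and Postn, a matricellular partner of type I collagen, from 18.9 ± 4.87 to 85.98 ± 22.4 CPM (SD, n = 3 each; adjusted p up to 0.000371, edgeR). Sparc, a collagen chaperone of the matrix, was at 4438 ± 99.8 and 4546 ± 130 CPM (SD, n = 3 each; adjusted p = 0.725, edgeR).

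Markers of cells that make fibrillar collagen were read in the same samples. The 10 fibroblast and mesangial markers summed to 249 to 278 CPM in the WT and 127 to 128 CPM in the AS samples, most of it from Pdgfrb, while Lum had 0 counts in every sample and Dcn and Pdgfra stayed under 3 CPM. Of the 6 tested, Pdgfrb was lower and Dcn was higher in AS podocytes, at 0.538 ± 0.399 CPM in WT against 2.35 ± 0.725 CPM in AS (SD, n = 3 each; edgeR adjusted p = 0.00513). Among the 4 with too few counts to be tested, Dpt had 0 counts in the WT and 29 in the AS samples, and Pi16 had 2 and 30. The 4 smooth muscle markers summed to 9992 to 12517 CPM in the WT and 9107 to 10717 CPM in the AS samples, with Acta2 at 6701 ± 1094 and 6759 ± 588 CPM (SD, n = 3 each) and 3 of the 4 lower. Of 14 podocyte markers 11 were tested and 10 passed, 3 higher and 7 lower in AS podocytes, against 40.1% of all genes tested. The podocyte markers summed to 2208 to 2527 CPM in the WT and 1771 to 1903 CPM in the AS samples. Most of this sum came from Synpo, Actn4 and Kirrel, so that it does not show larger changes in scarcer markers. Wt1 fell from 20.6 ± 5.28 to 2.50 ± 0.928 CPM, and Nphs1 fell from 0.466 ± 0.00969 to 0.0407 ± 0.0390 CPM. Lmx1b rose from 0.724 ± 0.235 to 7.69 ± 0.548 CPM (SD, n = 3 each; adjusted p of these genes up to 0.00276, edgeR). Endothelial markers summed to at most 52.4 CPM, most of it Ehd3, and the 5 leukocyte markers to at most 15.0 CPM. The summed parietal epithelial markers were 648 to 675 CPM in the WT and 503 to 533 CPM in the AS samples, and the tubular markers 328 to 387 and 383 to 531 CPM. Of 6 parietal markers tested, 4 were lower and 0 higher in AS podocytes. Of 3 tubular markers tested, only Cdh16 passed. Cdh16 rose from 71.3 ± 17.7 to 200 ± 19.4 CPM (SD, n = 3 each; edgeR adjusted p = 9.34e-05), while Lrp2 and Cubn did not pass. The part of these cell states in the collagen values was not tested.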

How the data were processed

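The data are RNA-seq libraries of 3 WT and 3 AS podocyte samples. Libraries were made with the Nugen Universal Plus mRNA-Seq kit and 15 cycles of PCR. Per gene, the authors deposited raw read counts as whole numbers, not normalized. The submitters' processing notes name FastQC, Trim Galore, STAR, edgeR and the build mm39, while the sources used here do not give the counting tool, its strand setting or the annotation release. Without their version suffix, 51880 of 57132 identifiers were in GENCODE M21 (GRCm38), which was used for names, gene order and lengths. Identifiers with no symbol made up 0.363% of counts.

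The software was edgeR 4.0.16, DESeq2 1.42.0 and limma 3.58.1 under R 4.3.3. The filter was filterByExpr, with a minimum count of 10 and a minimum total of 15. After TMM scaling, genotype was fitted alone by the quasi-likelihood method of edgeR, with Benjamini-Hochberg adjustment over all 16263 genes. Standard errors (SE) are approximate, taken from the log2 fold change and its F statistic. RPKM were computed here. The tests were tested on simulated data in which few genes differed and no chromosome was shifted. That setting is unlike these data, where 40.1% of all genes tested were called. Total counts were 45417221 to 54290968 per sample, and, since PCR copies were not told apart by molecular identifiers, limits of detection cover counting error only. Intervals between samples rest on groups of 3.

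The collagens and the lists were chosen with earlier results of these data known. All collagens other than type IV were named, and of each other list the 4 genes with the smallest adjusted p and the 2 with the highest level per length. The genes around neighbouring collagens, the podocyte genes Synpo and Tcf21, the other markers named and BX649560.1 were named after their values were seen. Alternatives were other size factors, library size only, DESeq2, limma-voom (the method the study names), a filter of mean CPM at or above 1 or none, the replicate number as a block, single samples left out, and chromosome medians removed.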

Additional observations from a re-analysis of the deposited data

How the results depend on the processing

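The number of collagens called higher in AS podocytes was 12 and that called lower was 5. The first stayed between 11 and 14 and the second between 4 and 7 over all alternatives with a test, within 1.5 times the main count. Without any filter on low counts they were 14 and 7, with Col2a1, Col7a1, Col16a1 and Col27a1 added, and with the replicate number as a block 12 and 7. With each sample left out they ran from 11 to 12 and from 4 to 6. Of the 17 collagens called, 15 kept their direction and their call under each alternative with a test, the exceptions being Col6a3 and Col15a1, both near or under 1 CPM.

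Over the collagens, 370 of 402 values kept their side of 0 and of the threshold or, with chromosome medians removed, kept their side of 0 within a standard error. No new p was computed with chromosome medians removed. Of the other values, 11 fell short of the threshold, 13 newly passed it and 4 were reversed. A further 4 moved by more than a standard error once chromosome medians were removed. The reversed values belong to genes that did not pass in the comparison as reported. The Col12a1 log2 fold change was 0.0052 without AS replicate 2, and ran from -0.23 to that value with each sample left out. That of Col11a1 was 0.023 without WT replicate 2, 0.020 without AS replicate 2 (-0.16 to 0.023 with each sample left out) and 0.041 with chromosome medians removed. Of the other named genes, the P4hb log2 fold change was -0.024 without WT replicate 1 (-0.024 to 0.068 with each sample left out) and that of Itgb1 was -0.22 with chromosome medians removed. That removal also moved Pcolce from 0.91 to 0.71 and Loxl3 from -0.52 to -0.32, each by more than a standard error. The cause was not tested.

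The replicate numbers were not taken to pair the samples. Correlations of the deviations from group means were 0.147, 0.0939 and 0.0526 within the numbers 1, 2 and 3, and -0.130 to 0.0571 across numbers. WT replicate 3 correlated best with AS replicate 2, and each other sample with its own number, a hint from the data only. With the replicate block, Col7a1 (-0.74), Col16a1 (0.33) and Col27a1 (-0.58) passed and Col15a1 (0.81) did not. Depth limits the 9 collagens that were not tested and those near 1 CPM.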
